A study of Mus musculus with 9 samples.

Results

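Lazy Piggy medulloblastomas were divided by the chromosome from which their transposon was launched, and the insertions of the tumours launched from chromosome 10 were set against those of the tumours launched from chromosome 7. The authors' sample sheet lists for each library a local chromosome, read here as the chromosome that held the transposon before it moved, and the animals used were those of either arm of the study whose libraries carry the sample code PT, left as the sheet gives it. This gave 119 of the 141 animals and control DNAs of the sheet, 90 launched from chromosome 10 and 29 launched from chromosome 7. The animal was the unit, and its libraries of 1 kind were summed.

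The series asked which insertions maintain Sonic hedgehog (SHH) medulloblastoma, a tumour of cerebellar granule cell precursors, and read transposon insertions from tumour DNA. All tumours came from mice of the Lazy Piggy line that were either given tamoxifen (TAM+) or not (TAM-). From chromosome 10 there were 53 TAM+ and 37 TAM- animals, and from chromosome 7 there were 19 and 10, with no difference in proportion past the test (Fisher's exact test, two-sided, p = 0.663). The days listed for the TAM+ animals, whose meaning the sheet does not state, had a median of 46.5 (4 to 249) from chromosome 10 and 69 (18 to 233) from chromosome 7. The promoter and cell type behind each transgene, and any tumour-prone allele shared by both groups, are not stated in the labels or the sheet, and neither is the position of the launch site on its chromosome.

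Sleeping Beauty (SB) is a cut-and-paste DNA transposon that integrates at TA dinucleotides, and piggyBac (PB) is an unrelated one that integrates at TTAA and leaves no footprint when it is cut out. An SB element that is mobilised from a chromosomal array often lands again near the array, a behaviour called local hopping, so insertion screens commonly set the donor chromosome aside. In the Lazy Piggy construct the inserted element can be cut out again with the PB transposase, which tamoxifen is meant to switch on. Clonal insertions in a tumour are read as a record of the cell from which the tumour grew, and insertions with a low share of the counts as marking a small part of the cells.

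Libraries of 3 kinds were read for every animal. IR libraries were amplified outward from the SB part, PB libraries from the PB part and JX libraries from the boundary between the parts. The 720 libraries of the 119 animals held 494106286 counts on 2830612 lines of position and library. IR libraries were the deepest, with a median of 3.33e+06 counts per animal from chromosome 10 (295999 to 6337624) and 2.78e+06 from chromosome 7 (960738 to 4844549). PB libraries ranged most widely, from 1714 to 2853048 counts from chromosome 10 and from 6650 to 2275816 from chromosome 7, with medians of 209634 and 222909. The difference in mean log10 depth between the groups did not pass the test in any kind (permutation test, two-sided, lowest p = 0.167 for IR). All 9 sequencing lanes held animals of both groups. A called site is a position, or positions within 10 bp, with 10 or more counts that also reach 1% of the animal's highest site in that kind of library. The calls came to 2150 IR, 6454 JX and 2910 PB sites. Of the JX sites, 3027 lay at positions whose counts were spread over animals (counts in at least 3 animals, with no animal holding over 50% of them), against 14 IR and 43 PB sites. Where several animals called the same position, only the animal with the highest share there kept it.

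The launch labels were checked against the sites. From chromosome 10, 76 of 90 animals had more IR sites on chromosome 10 than on chromosome 7, as did 72 in JX and 78 in PB. From chromosome 7, 23 of 29 animals had more IR sites on chromosome 7 than on chromosome 10, as did 23 in JX and 22 in PB. In each group 1 animal went against its label in all 3 kinds. The animal launched from chromosome 7 had 6 of 11 IR sites on chromosome 10 and 0 on chromosome 7, and its highest IR site lay in Otogl on chromosome 10. The animal launched from chromosome 10 had 0 of 7 IR sites on chromosome 10 and 1 on chromosome 7, and its single chromosome 7 site in PB, listed for Eed (a gene named here after its values were seen), held 74.2% of its PB counts. A TAM- animal of lane 4, launched from chromosome 10, went against its label in IR and PB but not in JX. It had 0 of 32 IR sites on chromosome 10 and 8 on chromosome 7. Of its 70 PB sites, 3 lay on chromosome 10 and 15 on chromosome 7, while its JX sites numbered 5 and 2. Another animal, launched from chromosome 7, fitted its label in IR and JX by only 1 site on chromosome 7 against 0 on chromosome 10, among 4 and 7 sites. It had 53 of 149 PB sites on chromosome 10 and 5 on chromosome 7. Of these 53 sites, 25 lay within 5 Mb of the chromosome 10 window described below. That PB library held 10515 counts, the 10th lowest of the 119, and none of its chromosome 10 sites exceeded 0.875% of its PB counts. A further animal launched from chromosome 7 had 36 of 140 PB sites on chromosome 10 and 7 on chromosome 7, from 18059 PB counts, and 8 of 35 IR sites on chromosome 10 and 3 on chromosome 7, while its JX sites numbered 11 and 12. Both were TAM+ animals of lane 8, and the next animal of the group had 8 PB sites on chromosome 10. Without the 2 animals against their labels the IR difference below in the share of sites on chromosome 10 was 26.3 points instead of 24.2, and without the animal with 53 PB sites there the PB difference was 22.0 points instead of 21.0, or 22.7 without both of these animals.

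In tumours launched from chromosome 10 the sites of every kind of library gathered on chromosome 10, at a mean of 21.7% to 29.2% of an animal's sites, and in tumours launched from chromosome 7 those means were 5.02% to 7.91%. Of each animal's IR sites, the share on chromosome 10 was 0% at the lowest, 28.6% at the median and 100% at the highest from chromosome 10, and 0%, 0% and 54.5% from chromosome 7. The ranges overlapped, and 10 of the 90 animals launched from chromosome 10 had no IR site there, as did 19 of the 29 launched from chromosome 7. The mean IR share on chromosome 10 was 29.2% ± 18.4 (SD, n = 90) from chromosome 10 and 5.02% ± 11 (SD, n = 29) from chromosome 7. JX sites showed the same order with a smaller gap, at 21.7% ± 14.3 and 6.15% ± 11.43. PB sites stood at 28.9% ± 17.3 and 7.91% ± 12.2. Each of the 3 differences reached the smallest p that 100000 resamples can give (permutation test, two-sided, p = 1e-05). The mean was higher from chromosome 10 in 9 of 9 lanes for IR and PB and in 8 of 9 for JX.

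Chromosome 7 was the mirror image. The share of IR sites on chromosome 7 ran from 0% through a median of 24.3% to 58.3% in tumours launched from it, and from 0% through a median of 0% to 50% in tumours launched from chromosome 10. The groups overlapped at both ends, with 2 of 29 and 52 of 90 animals at 0%. Mean shares on chromosome 7 were 24.2% ± 15.1 (SD, n = 29) from chromosome 7 and 5.29% ± 9.03 (SD, n = 90) from chromosome 10 for IR sites, 17.3% ± 14.7 and 6.09% ± 7.33 for JX sites, and 21.7% ± 12.1 and 4.57% ± 7.58 for PB sites (permutation test, two-sided, p = 1e-05 for each). The order held in 9 of 9 lanes for IR and PB and in 8 of 9 for JX. In the animals without tamoxifen taken alone, the JX difference of chromosome 7 shares (chromosome 10 minus chromosome 7 launch) was -5.71 percentage points with an adjusted p of 0.0577 by the permutation test, and so no longer passed 0.05.

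**Figure D1:**
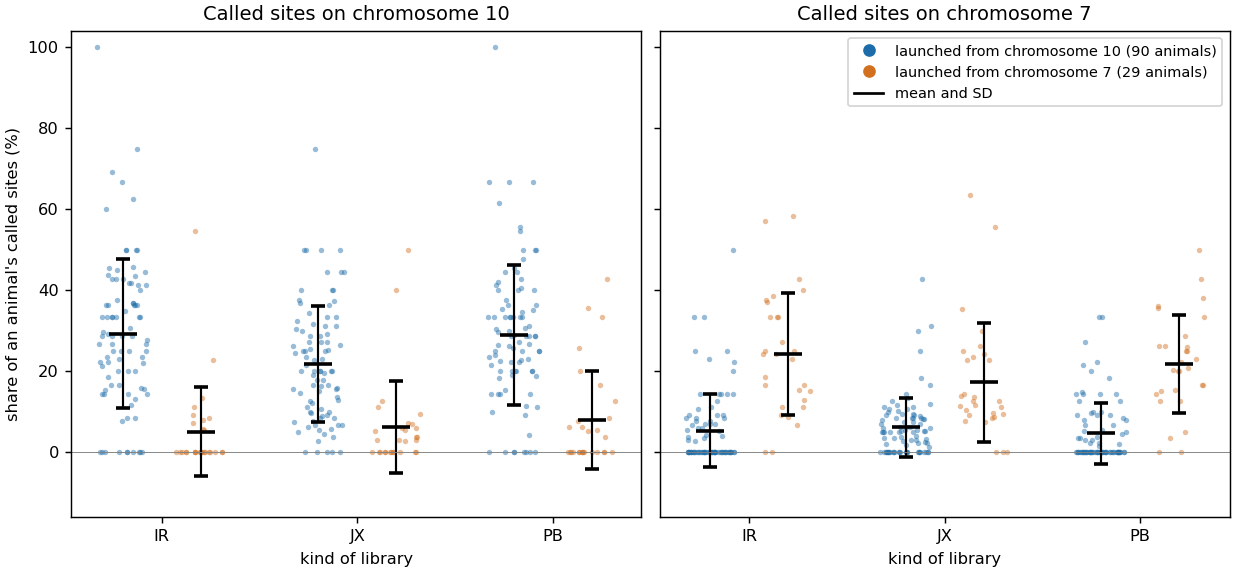
Share of each animal's called sites, in percent, on chromosome 10 and on chromosome 7, for IR, JX and PB libraries. Each point is 1 animal, 90 launched from chromosome 10 and 29 from chromosome 7, and black marks give the mean and SD. In IR the means on chromosome 10 are 29.2% and 5.02%, and on chromosome 7 they are 5.29% and 24.2%, with overlapping ranges.

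Pooled over animals and set against the part of the covered genome that each chromosome makes up (4.92% for chromosome 10 and 5.77% for chromosome 7), IR sites had 4.99 times the density of an even spread on chromosome 10 in tumours launched from it, and 4.10 times on chromosome 7 in tumours launched from chromosome 7. PB sites had 5.51 and 3.23 times, and JX sites 3.19 and 2.31 times, that density on the launch chromosome. On the other launch chromosome, IR sites were close to their length share, at 0.983 times on chromosome 10 from chromosome 7 and 0.805 times on chromosome 7 from chromosome 10. The PB sites on chromosome 10 from chromosome 7 stood apart from that pattern, at 2.33 times and 11.5% of all PB sites of the group. Without the animal with 53 PB sites there, the share was 7.23%, and without that and the animal with 36 it was 3.55%, or 25 of 704 sites.

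The launch groups were next compared in how strongly sites gathered on their own launch chromosome. PB sites had the widest gap, with a mean of 28.9% ± 17.3 (SD, n = 90) of an animal's sites on chromosome 10 and 21.7% ± 12.1 (SD, n = 29) on chromosome 7. The difference of 7.20 percentage points had p = 0.0391 before and 0.117 after adjustment over the 3 kinds (permutation test, two-sided), and without lane 9 the adjusted p was 0.0481. For IR the difference was 5.03 points (adjusted p = 0.185) and for JX 4.43 points (adjusted p = 0.185), by the same permutation test. Weighted by counts rather than sites, the launch chromosome held 25.6% ± 17.4 of IR counts from chromosome 10 and 19.2% ± 14.7 from chromosome 7 (adjusted p = 0.228, permutation test). The groups overlapped almost entirely in all of these shares, and none of the 6 differences passed the adjusted threshold of 0.05.

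The number of sites per animal differed by less than the spread among animals in IR and JX libraries. IR libraries gave 17.5 ± 35.2 sites (SD, n = 90; 1 to 335, median 12) from chromosome 10 and 19.97 ± 16.3 (SD, n = 29; 4 to 70, median 13) from chromosome 7. The 335 IR sites belonged to 1 animal launched from chromosome 10, and the next had 45. JX libraries gave 55.3 ± 83.7 and 50.9 ± 62.6 sites. PB libraries gave 21.3 ± 28.6 sites (1 to 187, median 11) from chromosome 10 and 34.2 ± 43.3 (3 to 149, median 14) from chromosome 7, a difference with an adjusted p of 0.182 (permutation test, two-sided). Without the animal with the most sites in each kind, the PB difference was -14.8 sites (chromosome 10 minus 7), and the IR difference -6.08 sites, each with an adjusted p of 0.0241. Without lane 3 the PB difference was -18.6 sites (adjusted p = 0.0479) and without lane 8 it was -4.72 sites (adjusted p = 0.863), by the same permutation test. Without both lane 8 animals with many PB sites on chromosome 10 it was -4.77 sites (adjusted p = 0.801, permutation test). The lower PB number from chromosome 10 was also seen outside chromosomes 7 and 10, at 14.6 ± 20.2 sites against 23.9 ± 29.6 (adjusted p = 0.157, permutation test). This difference was -10.4 sites without the animal with 187 PB sites, which was launched from chromosome 10 (permutation test, two-sided, adjusted p = 0.0318). Without both lane 8 animals launched from chromosome 7 it was -4.15 sites (permutation test, two-sided, adjusted p = 0.909).

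On both chromosomes the sites were crowded around a single 1 Mb window, and the window had the same coordinates on each chromosome. Coordinates are those of mouse build mm9, per the submitters' processing notes. On chromosome 10 the window hit in the most animals was chr10:107000001-108000000 in all 3 kinds. IR sites lay in it in 46 of 90 animals launched from chromosome 10 (51.1%) and 1 of 29 launched from chromosome 7 (3.45%; Fisher's exact test, two-sided, adjusted p = 9.62e-05). JX sites lay in it in 50 and 3 animals (55.6% and 10.3%, adjusted p = 0.00562, Fisher's exact test), and PB sites in 46 and 3 (51.1% and 10.3%, adjusted p = 0.00748, Fisher's exact test). Its genes with called IR sites included Otogl, Ppp1r12a, Ptprq and Syt1.

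On chromosome 7 the window chr7:107000001-108000000 held IR sites in 13 of 29 animals launched from chromosome 7 (44.8%) and 1 of 90 launched from chromosome 10 (1.11%; Fisher's exact test, adjusted p = 1.33e-06). JX sites lay in it in 14 and 5 animals (48.3% and 5.56%, adjusted p = 0.000703, Fisher's exact test) and PB sites in 15 and 2 (51.7% and 2.22%, adjusted p = 4.16e-07, Fisher's exact test). Here the genes with the most hits were Plekhb1, Fam168a and Rab6a, whose sites follow each other along the chromosome. The windows on either side, from 106 and from 108 Mb, each held IR sites in 5 of 29 animals launched from chromosome 7 and 0 of 90 launched from chromosome 10 (adjusted p = 0.0206, Fisher's exact test). The window from 108 Mb differed in PB as well (5 and 0 animals, adjusted p = 0.0464, Fisher's exact test). Group size matters at such low counts. By Fisher's exact test, 5 animals from chromosome 7 and 0 from chromosome 10 had an unadjusted p of 0.000650, while 5 from chromosome 10 and 0 from chromosome 7 would have 0.333.

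Among all windows hit in at least 3 animals, those called more often from chromosome 10 made up 0.787% (IR), 0.105% (JX) and 0.467% (PB), and those called more often from chromosome 7 made up 2.36%, 0.105% and 0.935%. All called windows lay on the launch chromosome of the group with more hits, at 106 to 109 Mb. The chromosome 10 window passed 0.05 in IR under all 21 alternatives that gave it a value and in JX and PB under 17 of 21 each. The chromosome 7 window passed under all 21 in IR and PB and under 19 of 21 in JX. The IR count from chromosome 7 was 1 window without lane 4, the JX count from chromosome 10 was 0 without lane 1 and the PB count from chromosome 7 was 1 without lane 2.

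**Figure D2:**
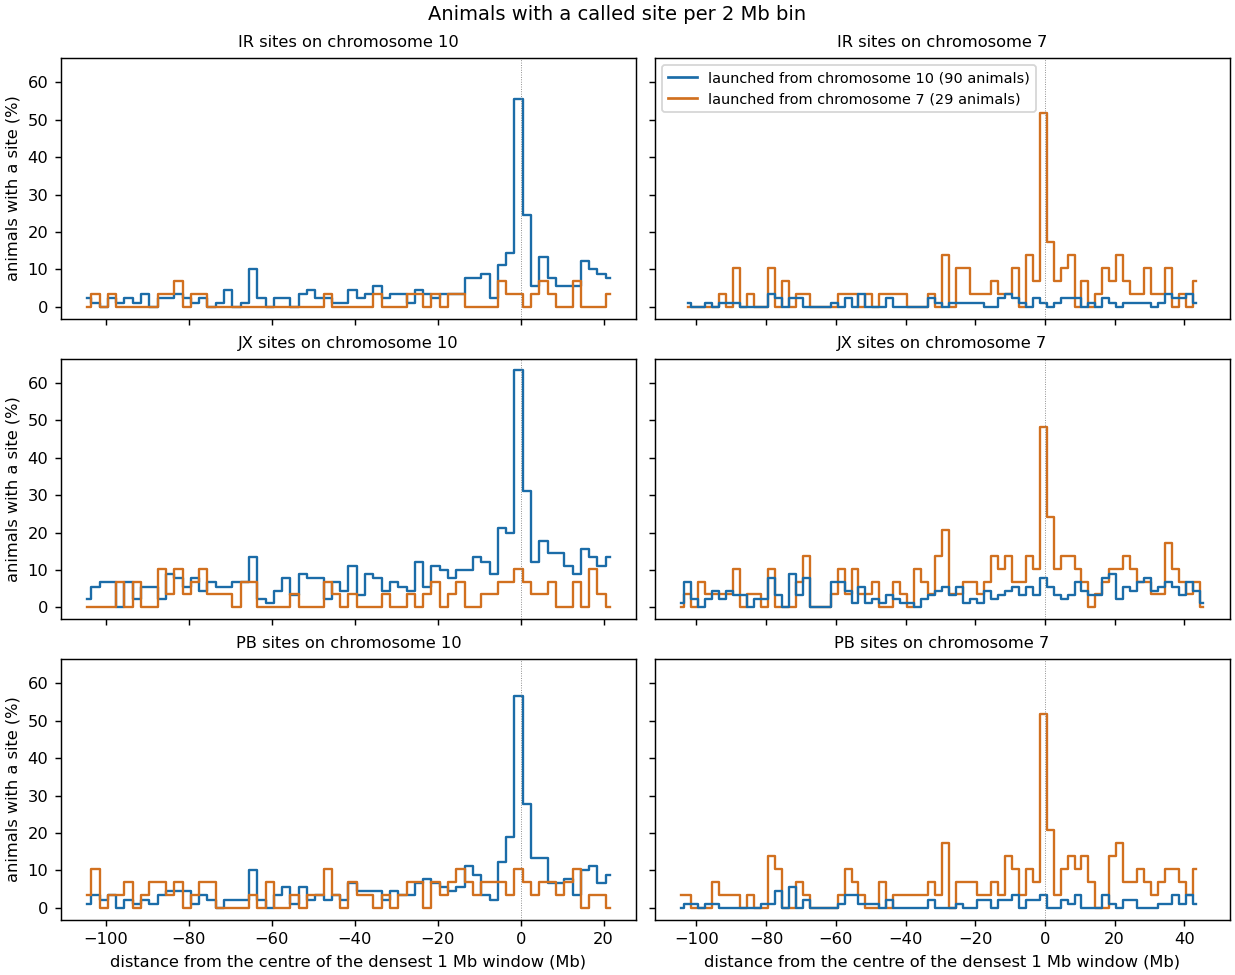
Percentage of animals with a called site in each 2 Mb bin along chromosomes 10 and 7, against the distance in Mb from the centre of the 1 Mb window hit most often, for IR, JX and PB libraries and for each launch group. The launch group of each chromosome peaks at the window, in which 51.1% (chromosome 10) and 44.8% (chromosome 7) of its animals had an IR site, and the other group stays low there.

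The share of animals hit dropped steeply next to the window, and the other sites were spread along the chromosome. In 2 Mb bins, 55.6% of animals launched from chromosome 10 had an IR site in the bin that holds the chromosome 10 window, and 14.4% and 24.4% in the bins beside it. Around the chromosome 7 window these shares were 51.7%, 6.90% and 17.2% of animals launched from chromosome 7. Of the 386 IR sites on chromosome 10 in tumours launched from it, 26.4% lay within 1 Mb of the window, 44.0% within 5 Mb, 53.4% within 10 Mb and 71.2% within 20 Mb. Of the 137 IR sites on chromosome 7 in tumours launched from it, the shares were 25.5%, 35.0%, 45.3% and 54.7%. PB sites had 46.0% within 5 Mb on chromosome 10 and 28.1% on chromosome 7, and JX sites 37.2% and 31.0%. In both groups most animals contributed, with at least 1 IR site within 5 Mb in 67 of 90 and 19 of 29 animals. These distances were measured from the window with the most animals, which was chosen on the same sites, and they are given as a description.

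Many animals had sites of more than 1 kind of library in the window. A site of any kind lay in it in 63 of 90 animals launched from chromosome 10 and 18 of 29 launched from chromosome 7, and sites of all 3 kinds in 33 and 10. Whether the sites of different kinds in an animal marked the same insertion was not tested. Introns held 61.6% of the 86 IR sites in the chromosome 10 window and 65.4% of the 26 in the chromosome 7 window, against 46.9% and 47.3% of the IR sites of the same groups in the rest of the genome. No gene was listed for 4.65% and 0% of the IR sites in the windows, against 20.2% and 21.0% in the rest of the genome. The part of gene cover in the intron shares was not tested. Within 5 Mb, no gene was listed for 21.8% of the IR sites around the chromosome 10 window and 2.08% of those around the chromosome 7 window. Most IR sites in the windows were minor, with a median of 2.21% of the animal's IR counts on chromosome 10 and 0.653% on chromosome 7. In the rest of the genome the medians were 0.627% from chromosome 10 and 1.22% from chromosome 7. The highest reached 54.2% and 17.3%, and the animal's highest IR site lay in the window in 6 and 1 animals.

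Genes were compared by the number of animals with at least 1 called site listed for the gene, which includes sites up- and downstream that the deposited table assigns to it. In IR libraries, 5 of the 38 genes hit in at least 3 animals differed between the launch groups. Ppp1r12a and Otogl were hit more often from chromosome 10 (5.26% of the genes tested), and Plekhb1, Rab6a and Fam168a more often from chromosome 7 (7.89%). In PB libraries 4 of 55 genes differed, Ppp1r12a from chromosome 10 (1.82%) and Fam168a, Plekhb1 and Rab6a from chromosome 7 (5.45%). In JX libraries 0 of 220 genes passed (0% in either direction; Fisher's exact test, two-sided, adjusted), while 3 genes from chromosome 10 and 9 from chromosome 7 had an unadjusted p under 0.05. Every called gene lay in the window hit most often on its chromosome.

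Ppp1r12a encodes the subunit that directs myosin phosphatase to its substrate. It was hit in IR libraries in 25 of 90 animals launched from chromosome 10 (27.8%, 95% exact binomial interval 18.9 to 38.2%) and in 0 of 29 launched from chromosome 7 (interval 0 to 11.9%), with an adjusted p of 0.00824 by Fisher's exact test. The 32 IR sites ran from chr10:107509595 to 107745451, with 16 in introns, 8 upstream and 8 downstream, 21 in the orientation of the gene and 11 opposite to it. They held between 0.0845% and 54.2% of the animal's IR counts (median 2.97%) and were the highest site of 5 animals, so the gene carried both minor and leading insertions. In PB libraries it was hit in 28 and 1 animals (31.1% and 3.45%, adjusted p = 0.0398, Fisher's exact test), and in JX libraries in 25 and 1 (adjusted p = 0.185, Fisher's exact test). Any kind of library hit it in 38 animals launched from chromosome 10 and all 3 kinds in 14. The IR call was lost with sites inside gene bodies only (adjusted p = 0.114) and in the animals without tamoxifen alone (adjusted p = 0.434), both by Fisher's exact test.

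Otogl, next to Ppp1r12a, encodes an otogelin-like glycoprotein of the membranes of the inner ear. It had IR sites in 25 of 90 animals launched from chromosome 10 and 1 of 29 launched from chromosome 7 (27.8% and 3.45%, adjusted p = 0.0319, Fisher's exact test). The 31 IR sites from chromosome 10 lay at chr10:107232744-107445470, 23 in introns and 8 upstream, with a median of 1.89% and a highest value of 39.1% of IR counts. JX libraries hit it in 33 and 1 animals (36.7% and 3.45%, adjusted p = 0.0580, Fisher's exact test) and PB libraries in 23 and 2 (adjusted p = 0.399, Fisher's exact test). The only IR hit from chromosome 7 was in the animal that went against its label, in intron 17 at chr10:107309023, with 31.1% of that animal's IR counts, 1.67% of its JX counts and, in the same intron, 6.09% of its PB counts. The IR call passed 0.05 under 10 of 23 alternatives.

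The other genes around the chromosome 10 window were hit mostly from chromosome 10 without passing the test. Nav3, a neuron navigator protein that binds microtubules, had IR, JX and PB sites in 10, 17 and 12 of 90 animals launched from chromosome 10 and in 0, 1 and 1 of 29 launched from chromosome 7. Syt1, the calcium sensor of synaptic vesicle release, had 10, 12 and 14 animals against 0, 1 and 2. All 11 IR sites of Syt1 lay in introns and 10 of the 11 were labelled opposite to the gene. From chromosome 10, its JX sites were 10 in the orientation of the gene and 13 opposite, and its PB sites 15 and 7. The label could differ between kinds of library at a shared position, so kinds are not compared by it. At the 2 positions of Gtpbp4, described below, the labels were 1 and 1 in IR and 0 and 2 in JX. Ppfia2, a liprin of the presynaptic active zone, had 8, 12 and 7 animals against 0, 0 and 1. Ptprq, a receptor-type phosphatase of hair cell bundles, had 7, 8 and 7 animals against 0 in each kind. Lin7a, a scaffold protein of cell junctions and synapses, had 5, 9 and 9 animals against 0, 0 and 1. Adjusted p-values of these genes were 0.507 or higher in IR (Fisher's exact test).

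On chromosome 7, Plekhb1 encodes a membrane protein with a pleckstrin homology domain. It was hit in IR libraries in 6 of 29 animals launched from chromosome 7 (20.7%, 95% exact binomial interval 7.99 to 39.7%) and 0 of 90 launched from chromosome 10 (interval 0 to 4.02%), with an adjusted p of 0.00520 by Fisher's exact test, and this held under all 22 alternatives that gave it a value. Its 8 IR sites lay at chr7:107793982-107845071, 5 in introns and 3 upstream, 4 in each orientation, with 0.193% to 17.3% of the animal's IR counts. All 6 animals with an IR site were TAM+. PB libraries hit it in 6 and 1 animals (20.7% and 1.11%, adjusted p = 0.0218, Fisher's exact test) and JX libraries in 6 and 1 (adjusted p = 0.0580, Fisher's exact test).

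Rab6a, a small GTPase of Golgi transport that adjoins Plekhb1, had IR sites in 5 of 29 animals launched from chromosome 7 (17.2%) and 0 of 90 launched from chromosome 10 (adjusted p = 0.00824, Fisher's exact test). Those 6 IR sites fell within chr7:107787366-107792081, 4 downstream of the gene, 1 in an intron and 1 in an exon. PB libraries hit it in 4 and 0 animals (adjusted p = 0.0411) and JX libraries in 6 and 1 (adjusted p = 0.0580), both by Fisher's exact test.

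Fam168a had IR sites in 5 of 29 animals launched from chromosome 7 and 1 of 90 launched from chromosome 10 (17.2% and 1.11%, adjusted p = 0.0306, Fisher's exact test). Its 5 IR sites from chromosome 7 all lay in introns, at chr7:107898012-107957287, with at most 5.66% of IR counts. PB libraries hit it in 6 and 1 animals (adjusted p = 0.0218) and JX libraries in 6 and 2 (adjusted p = 0.144), both by Fisher's exact test. The animal launched from chromosome 10 carried its site in intron 3 at chr7:107953297, with 9.48% of its IR, 23.4% of its JX and, at chr7:107953347, 24.5% of its PB counts. These shares were larger than those of any Fam168a site in the animals launched from chromosome 7.

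Farther along chromosome 7, Odz4, a teneurin of developing neurons, had IR sites in 3 of 29 animals launched from chromosome 7 and 0 of 90 launched from chromosome 10 (adjusted p = 0.0845, Fisher's exact test), but JX sites in 1 and 3. Dlg2, a scaffold of the postsynaptic density, had IR sites in 2 and 0 animals and JX sites in 2 and 3. C2cd3, a protein of centriole assembly inside the window, had JX sites in 3 and 0 animals.

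All 4 PB gene calls were lost when positions spread over animals were left out and when only left end libraries were used. In the animals without tamoxifen alone, 0 IR and 0 PB genes passed, among 37 animals launched from chromosome 10 and 10 from chromosome 7. The IR calls of Rab6a and Fam168a passed 0.05 under 17 of 21 and 15 of 22 alternatives. The PB calls of Ppp1r12a, Fam168a, Plekhb1 and Rab6a passed under 13 of 25, 18 of 23, 19 of 24 and 14 of 19. Without lane 3, the IR calls from chromosome 7 came to 1 and the PB calls to 0, and without lane 1 the calls from chromosome 10 came to 1 in IR and 0 in PB.

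**Figure D3:**
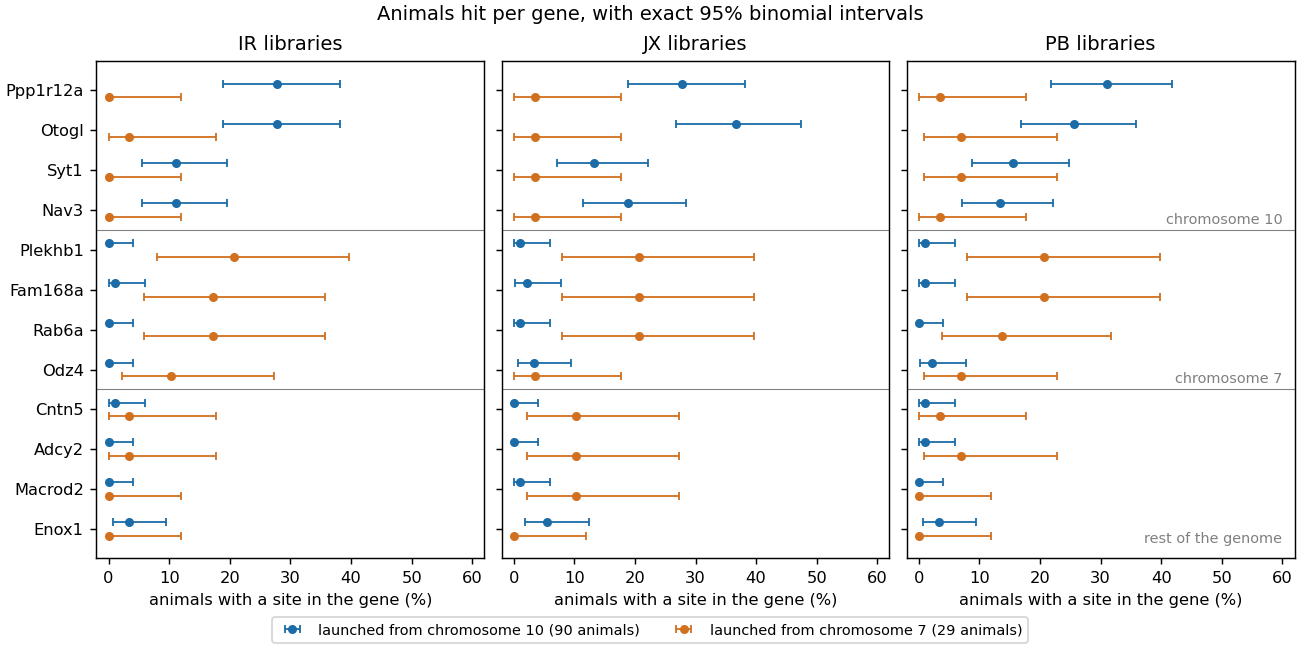
Percentage of animals with a called site in each gene, for tumours launched from chromosome 10 (n = 90) and chromosome 7 (n = 29), in IR, JX and PB libraries, with 95% exact binomial intervals. Ppp1r12a and Otogl stand at 27.8% in IR from chromosome 10, and Plekhb1 stands at 20.7% from chromosome 7 and 0% from chromosome 10.

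Gene lists gave the same division. An IR site in a list of 24 genes of chromosome 10 was present in 66.7% of animals launched from chromosome 10 and 6.90% of those launched from chromosome 7, and in a list of 23 genes of chromosome 7 in 1.11% and 51.7%. The lists are not limited to the windows. They include Pcdh15, with IR sites from chr10:73322543, and Dlg2, with IR sites from chr7:98450413. Both lists were drawn up from earlier results on these tumours, so their direction is not independent evidence. Genes of the SHH pathway had an IR site in 4.44% and 3.45% of animals, and genes that drive SHH tumours in mouse models in 7.78% and 3.45%. For JX sites the shares were 5.56% and 6.90% (SHH pathway) and 15.6% and 13.8% (mouse models), and for PB sites 2.22% and 3.45%, and 5.56% and 6.90%. Very long neuronal genes, large targets for insertion, had an IR site in 14.4% and 24.1%, a JX site in 38.9% and 37.9% and a PB site in 17.8% and 27.6% of animals. These shares include sites on the launch chromosomes. In IR, Dlg2 on chromosome 7 was hit in 0 and 2 animals, and on chromosome 10 Pcdh15 in 4 and 1 and Ctnna3 in 2 and 0. Pcdh15 was the only member tested in IR. Few members of these 3 lists were hit in enough animals to be tested. In IR, JX and PB libraries they came to 0, 1 and 0 of 21 genes of the SHH pathway, 0, 3 and 0 of 24 mouse model genes and 1, 16 and 3 of 24 very long neuronal genes, and 0 of those tested passed (Fisher's exact test, adjusted).

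Outside chromosomes 7 and 10, 0 of 15 IR, 0 of 154 JX and 0 of 19 PB genes differed between the launch groups, while at an unadjusted p under 0.05 there were 0, 5 and 0 (Fisher's exact test), all 5 hit more often from chromosome 7. With groups of 90 and 29 animals, 0 and 3 animals hit gave an unadjusted p of 0.0133 (Fisher's exact test). By the same test, 7 and 0 gave 0.192 and 10 and 0 gave 0.116, so a few hits could pass only from chromosome 7. The direction of the 5 is thus not read as a difference between the groups. The lowest unadjusted p in JX libraries belonged to Adcy2, an adenylyl cyclase, Cntn5, a neuronal contactin, and Zbbx, each hit in 0 of 90 animals launched from chromosome 10 and 3 of 29 launched from chromosome 7 (adjusted p = 0.326, Fisher's exact test). Macrod2, a hydrolase that removes ADP-ribose, and Sfi1, a centrin-binding protein, were hit in 1 and 3 animals (adjusted p = 0.814, Fisher's exact test). En2, a homeobox gene of the cerebellum, had IR sites in 4 and 0 animals with 12.3% to 41.0% of their IR counts, but 3 of these 4 sites lay at positions whose counts were spread over animals. Both En2 and Sfi1 belong to the list of loci open to wrong mapping. En2 also held the highest PB site of 2 control tumours, at 15.9% and 20.9% of their PB counts.

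Outside the launch chromosomes, Enox1, which encodes an NADH oxidase of the cell surface, was hit in 5 animals, all launched from chromosome 10, and in all 3 kinds in 3 of them. Its hits did not pass the test in any kind (Fisher's exact test, adjusted p = 1 for IR, JX and PB). The chromosome 10 group held 90 of the 119 animals, and 5 animals against 0, as in JX, gave p = 0.333 before adjustment (Fisher's exact test). The test could therefore not pass at these numbers of animals. The 3 IR and 5 JX sites of Enox1 were all labelled in the orientation of the gene and its 4 PB sites all opposite to it. At Fam168a the labels also differed in the animal launched from chromosome 10, opposite in IR and in the orientation of the gene in PB. The contrast of labels is thus not read as a difference between insertions, and its source was not tested. Of the 5 JX sites of Enox1, 2 lay at positions whose counts were spread over animals. With left end libraries only, its JX difference turned to -0.115 points. Gtpbp4, a nucleolar GTPase of ribosome assembly, was hit in 2 animals launched from chromosome 7, in all 3 kinds in both, with IR sites upstream at chr13:9038439-9041073. With 2 animals it was below the minimum of 3 for a test.

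The distribution of the remaining sites over the other chromosomes was compared among animals with at least 3 such sites. No chromosome share differed after adjustment over 18 chromosomes (0% called in each kind, permutation test, two-sided), while at an unadjusted p under 0.05 there was 1 for IR and 3 each for JX and PB. The lowest adjusted p belonged to chromosome 15 in PB, with a lower share from chromosome 10 (2.86% ± 5.91, n = 80, against 8.53% ± 14.8, n = 27; adjusted p = 0.0963, permutation test). Chromosome 1 held 5.62% and 11.2% of the IR sites, 7.26% and 12.8% of the JX sites and 6.26% and 12.4% of the PB sites in tumours launched from chromosomes 10 and 7, with adjusted p of 0.221, 0.137 and 0.135 (permutation test). The same animals gave all 3 kinds, so these are not independent. Chromosome 13 held more than its length share of 5.10% in both groups, with 23.1% ± 20.3 of IR sites from chromosome 10 and 17.6% ± 15.6 from chromosome 7 (adjusted p = 0.768, permutation test). Its PB shares were 15.2% and 8.89%, a gap of 6.33 points with p = 0.0487 before and 0.239 after adjustment (permutation test).

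**Figure D4:**
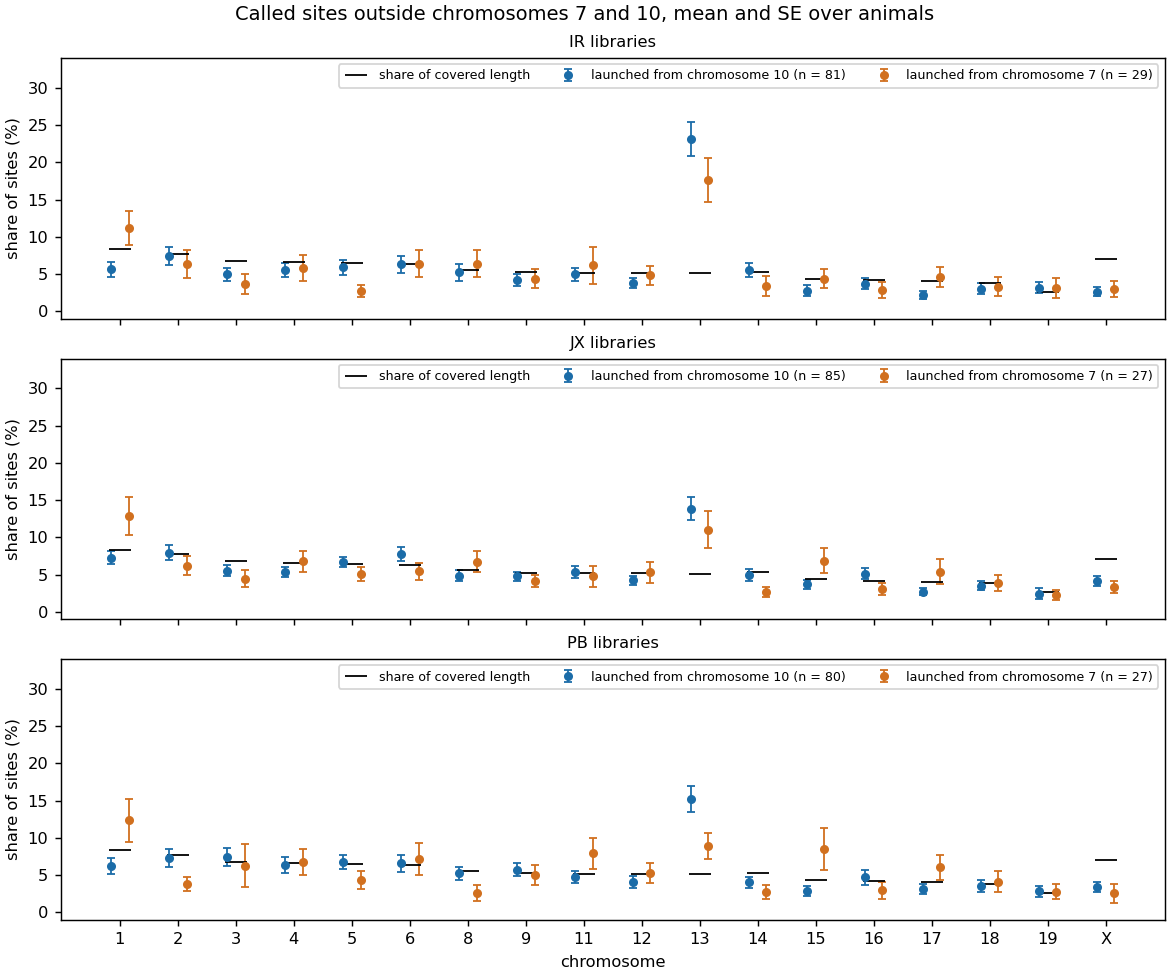
Mean share with its standard error over animals, in percent, of the called sites outside chromosomes 7 and 10 that lay on each other chromosome, for tumours launched from chromosome 10 and chromosome 7, in IR, JX and PB libraries, with black lines for the chromosome's share of the covered length outside chromosomes 7 and 10. Chromosome 13 has 23.1% and 17.6% of IR sites, and no chromosome differed between the groups after adjustment.

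The highest site of an animal, the insertion with the most counts, more often lay off the launch chromosome than on it. Chromosomes 10 and 7 make up 4.92% and 5.77% of the covered genome. They held a mean of 29.2% and 24.2% of the IR sites of animals launched from them. The highest site lay on the launch chromosome in 27 of 90 animals from chromosome 10 and 7 of 29 from chromosome 7 in IR (30.0% and 24.1%), in 23 and 5 animals in JX (25.6% and 17.2%) and in 22 and 6 in PB (24.4% and 20.7%). The difference did not pass the test in any kind (Fisher's exact test, two-sided, adjusted p = 0.804 for each). On the rest of the genome it lay in 65.6% and 65.5% of animals for IR sites. For JX sites this was 66.7% and 82.8%, and for PB sites 67.8% and 79.3%. It lay on the other launch chromosome in 4 of 90 and 3 of 29 animals for IR and in 7 and 0 animals for both JX and PB, where 0 of 29 allows up to 11.9% by the exact 95% interval.

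The highest IR site held 28.0% ± 15.5 (SD, n = 90; 0.871 to 93.0%, median 25.5%) of the animal's IR counts from chromosome 10 and 21.6% ± 13.4 (SD, n = 29; 4.65 to 64.6%, median 17.9%) from chromosome 7. The difference had p = 0.0482 and an adjusted p of 0.145 (permutation test, two-sided), and without lane 7 it was 8.80 points with an adjusted p of 0.0307. JX shares of 19.5% and 18.9% and PB shares of 35.0% and 34.7% lay closer together.

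**Figure D5:**
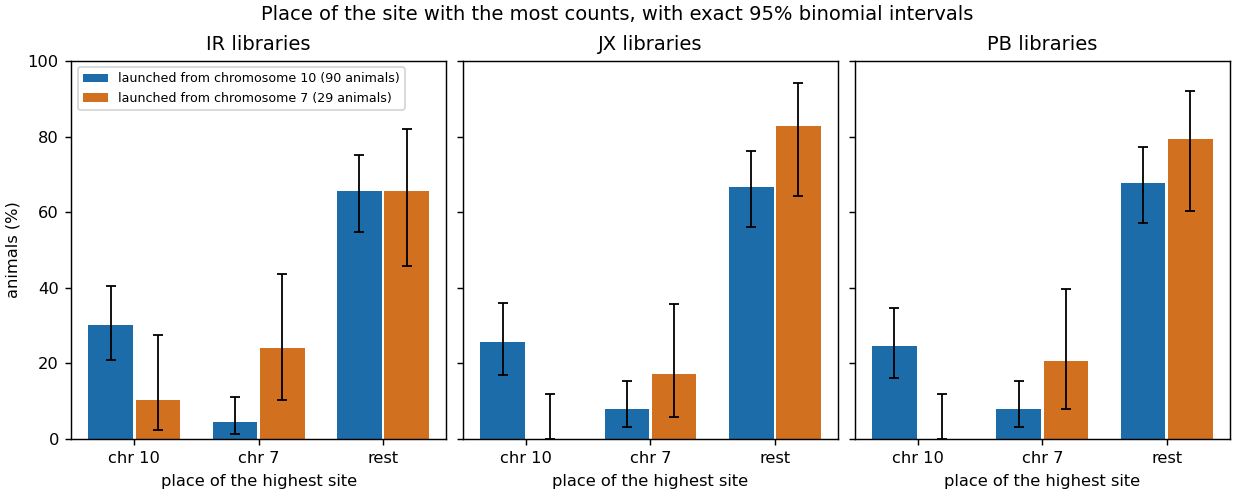
Percentage of animals whose highest site lay on chromosome 10, on chromosome 7 or on the rest of the genome, for IR, JX and PB libraries, with bars for the 90 animals launched from chromosome 10 and the 29 launched from chromosome 7 and whiskers for the exact 95% binomial interval. In IR the rest of the genome holds it in 65.6% and 65.5% of animals, and chromosome 10 in 30.0% and 10.3%.

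The share of IR sites at which JX libraries also had counts was 96.8% ± 11.45 (SD, n = 90) from chromosome 10 and 97.2% ± 7.62 (SD, n = 29) from chromosome 7 (p = 0.876, permutation test, two-sided). The lowest value, 4.78%, belonged to the animal with 335 IR sites. PB sites that lay over 100 bp from any IR or JX count of the animal were 31.4% and 33.7% of all its PB sites (p = 0.645, permutation test, two-sided).

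Within animals launched from chromosome 10, PB sites away from such counts were less frequent on the launch chromosome than elsewhere, at 25.1% ± 26.0 against 34.1% ± 26.5 (SD, n = 81; lower in 46, higher in 21 and equal in 14; difference -8.97 points, adjusted p = 0.0262, permutation test). From chromosome 7 the shares were 38.7% ± 35.3 and 35.3% ± 20.7 (n = 27, p = 0.552, permutation test), and the difference between the launch groups had p = 0.0583 (permutation test). Raw IR and JX positions were also denser on the launch chromosome, at 18.2 per Mb against 5.74 elsewhere from chromosome 10 (higher in 89 of 90 animals) and 13.6 against 6.0 from chromosome 7 (higher in 28 of 29), and their part in this result was not tested. The call was lost with sites called at 5% of the highest site, with sites kept in every animal that called them, with left end libraries only, in animals without tamoxifen only and without lane 2, 3, 6 or 7. From chromosome 7 the direction turned with sites called at 0.1% of the highest site (-12.3 points, adjusted p = 0.00314, permutation test).

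Outside chromosomes 7 and 10, introns held 44.9% ± 22.3 of IR sites from chromosome 10 (SD, n = 87) and 45.4% ± 21.9 from chromosome 7 (SD, n = 29), and neither IR, JX nor PB passed the test (lowest adjusted p = 0.476, permutation test, two-sided).

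The launch contrast was also compared between the 2 arms. An IR site in the chromosome 10 window was present in 54.7% of TAM+ and 45.9% of TAM- animals launched from chromosome 10, and one in the chromosome 7 window in 47.4% and 40% of those launched from chromosome 7. The difference between launch groups in the share of IR sites on chromosome 10 was 23.5 points in TAM+ and 26.0 points in TAM- animals. None of 26 measures had a launch difference that itself differed between the arms (permutation test, two-sided, lowest adjusted p = 0.825).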

How the data were processed

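The authors deposited raw counts per insertion position and library, whole numbers with no scaling, in 1 table, and a sample sheet with the lane, launch chromosome, arm and days. The samples of the series are 9 sequencing lanes, and animals are named only in that sheet and the table. The build was mm9, per the submitters' processing notes. Tumour DNA was sheared, ligated to splinkerette adaptors and amplified from the SB part, the PB part or their boundary, per the labels' protocols. The sample titles name a restriction splink method instead, and how the DNA was cut was not settled here. The aligner, counting rule, gene annotation and filters were not given in the sources used here. An insertion near the launch site and a donor copy cannot be told apart by these counts, and counts are not independent molecules, so intervals cover sampling of animals only.

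Counts were summed over the ends and lanes of an animal (7 animals had libraries in 2 lanes), and 2 spellings of 1 ID with conflicting days (143 and 43) were joined. Sites were called as described in the report, at 10 counts and 1.0% of the highest site, with positions within 10 bp merged. Shares and numbers were compared by two-sided permutation tests with 100000 resamples, genes and 1 Mb windows hit in at least 3 animals by Fisher's exact test, and p-values were adjusted by Benjamini-Hochberg over the kinds of library, the genes, the windows or the chromosomes tested, with a threshold of 0.05. The tests were checked on simulated data. Genes named were, per kind, the 10 hit in the most animals of each launch group, the 10 with the lowest p, the 6 hit most outside chromosomes 7 and 10, and up to 4 hit members of each of 6 lists (genes of chromosome 10 and of chromosome 7 near and far from the windows, the SHH pathway, mouse SHH model genes, loci open to wrong mapping and very long neuronal genes), of which a selection is printed. The groups, members and lists were chosen with earlier results of these data known. Loci open to wrong mapping had an IR site in 8.89% of animals launched from chromosome 10 and 3.45% of those launched from chromosome 7. Alternatives changed the site call, the merging, the crediting of shared positions, the ends, the arms, the animals and the lanes. Python 3.11.15, numpy 2.4.6, pandas 2.3.3, scipy 1.17.1 and matplotlib 3.10.9 were used. No sequence is printed, as no genome of the files' build was used here.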

Additional observations from a re-analysis of the deposited data

How the results depend on the processing

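The shares of sites on chromosomes 10 and 7 kept their direction and an adjusted p under 0.05 under every alternative run, other than the JX share on chromosome 7 in animals without tamoxifen (-5.71 points, adjusted permutation p = 0.0577). The alternatives that moved other results follow, as differences of chromosome 10 minus chromosome 7 launch in percentage points or sites, with adjusted p from permutation tests, and none of the reversed differences between launch groups had passed the threshold. The cause was not tested, except that fewer animals or genes enter some alternatives. No paired analysis was possible because the lanes are 1 group and animals of the launch groups share no number. Lanes served as strata instead, and launch labels permuted within lanes gave the same call for all 26 results tested that way. PB libraries held as few as 1714 counts in an animal.

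With sites called at 0.1% of the highest site, called genes from chromosomes 10 and 7 were 5 and 6 in IR, 4 and 5 in JX, and 4 from chromosome 10 in PB, and called windows from chromosome 10 were 4 in IR, 4 in JX, 5 in PB, and from chromosome 7 they were 3 in JX. PB site numbers turned to 79.3 in all and 56.8 outside chromosomes 7 and 10, the IR intron share to 4.76, and the PB sites away from IR and JX counts (launch chromosome minus elsewhere, from chromosome 7) to -12.3 with an adjusted permutation p of 0.00314. Turned too were Sfi1 (1.88 in IR, 0.651 in JX), Cntn5 (0.766), En2 (-8.24) and Macrod2 (3.98) in JX.

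With sites called at 5% of the highest site, called genes were 1 and 1 in IR and 0 and 1 in PB, and called PB windows 0 and 1. JX site numbers turned to -1.64 in all and -2.09 outside the launch chromosomes, IR numbers there passed at -2.83, the PB share away turned to 3.85 and the PB intron share to -0.385. The within-animal difference of PB sites away was -7.85 from chromosome 10 (adjusted permutation p = 0.490) and -0.958 from chromosome 7. At 50 counts, JX site numbers were -1.68 and -3.89 and called JX genes 1 and 3. With positions within 100 bp merged, the IR share with JX counts was 0.130, the IR intron share 0.201 and the called IR genes from chromosome 10 were 1.

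With sites kept in every animal that called them, JX site numbers were -13.4 and -13.0, called JX genes from chromosome 7 were 1, the within-animal difference was -5.74 from chromosome 10 (adjusted permutation p = 0.255), and En2 (-15.4 in IR, -6.21 in JX), Dlg2 (3.10) and Zbbx (0.421) in JX turned. With positions spread over animals left out, IR site numbers were 13.3 and 8.09, the JX share of the highest site was -0.374, called JX genes were 1 and 2, called PB genes 0 and 0, called PB windows 0 and 1, and called windows from chromosome 7 were 1 in IR and 2 in JX.

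With left end libraries only, PB site numbers were 3.23 and 1.89, the share of the highest site -1.93 in JX and -0.363 in PB, the IR share with JX counts 0.668 and the highest IR site on the launch chromosome -6.48. Called genes were 1 and 1 in IR and 0 and 0 in PB, called JX windows 0 and 0 and PB windows from chromosome 7 were 1. The within-animal difference was -2.85 from chromosome 10 (adjusted permutation p = 0.465). En2 turned in all kinds (-0.115 in IR, -1.34 in JX, 4.44 in PB), as did Enox1 (-0.115), Macrod2 (4.44) and Odz4 (3.33) in JX.

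In animals with tamoxifen only, IR site numbers were 1.14 and 1.29, the JX share of the highest site -1.88, the IR intron share 1.01, the highest PB site on the launch chromosome -5.56 and Odz4 in JX 0.397. Called genes were 1 and 1 in IR and 0 and 1 in PB, with 1 from chromosome 7 in JX, and called windows were 1 in IR from chromosome 7, 0 in JX from chromosome 10 and 0 and 1 in PB. In animals without tamoxifen only, JX site numbers were -15.96 and -14.0, the IR share with JX counts was 1.75, called genes were 0 and 0 in IR and PB, called windows 0 and 0 in JX and 0 and 1 in PB, and the within-animal difference from chromosome 10 was -4.07 (adjusted permutation p = 0.752).

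Without the animal with the most sites, numbers were -6.08 in IR and -14.8 in PB (both adjusted permutation p = 0.0241), and outside the launch chromosomes -4.86 (IR), -0.683 (JX) and -10.4 (PB), and the IR share with JX counts was 0.621. Genes hit in at least 5 animals gave 2 and 3 called JX genes. Sites inside gene bodies only gave 0 called genes from chromosome 10 in IR and 0 and 0 in PB. Windows of 5 Mb gave 5 called PB windows from chromosome 7. At least 10 JX counts gave an IR share with JX counts of 0.472, and a distance of 1 kb gave a PB share away of 3.25 and a within-animal difference from chromosome 7 of -6.74.

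Some alternatives were chosen after seeing the data. Without the animals against their launch label, the IR intron share was 0.679 and the called JX genes from chromosome 10 were 1. Without the chromosome 7 animal with the most PB sites on chromosome 10, the PB share of the highest site was -0.435, and without the 2 such animals with the most it was -1.30. With the 2 spellings of 1 ID kept apart it was -0.0217 and called PB windows from chromosome 7 were 1. All alternatives of the within-animal difference of PB sites away were also chosen then, and from chromosome 10 it passed under 16 of 24.

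Leaving out each lane in turn, the PB share on the launch chromosome ran from 5.49 to 9.09, JX site numbers from -2.61 to 16.2, PB site numbers from -18.6 to -4.72, and outside the launch chromosomes from -4.06 to 11.42 in JX and from -13.4 to -4.13 in PB. The share of the highest site ran from 4.45 to 8.80 in IR, from -1.12 to 3.42 in JX and from -2.08 to 4.97 in PB, and the highest PB site on the launch chromosome from -0.923 to 6.96. The IR share with JX counts ran from -2.34 to 1.2, the PB share away from -3.93 to 0.247, and the intron share from -2.36 to 0.715 in IR and from -0.0214 to 5.35 in PB. The within-animal difference from chromosome 10 ran from -10.4 to -7.57, Dlg2 in JX from -6.72 to 0.04995 and Odz4 in JX from -1.53 to 3.95. Called genes from chromosomes 10 and 7 ran from 1 to 2 and 1 to 3 in IR, 0 to 1 and 0 to 2 in JX and 0 to 1 and 0 to 3 in PB. Called windows from chromosome 7 ran from 1 to 3 in IR and 1 to 2 in PB, and those from chromosome 10 from 0 to 1 in JX.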

Other observations

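In the sample sheet 3 control tumours outside both arms also have chromosome 7 listed, and they enter no comparison. In PB libraries the first had 11 called sites with 6 on chromosome 7, of which 3 lay within 5 Mb of the chromosome 7 window, and the second had 28 with 8 on chromosome 7, of which 3 lay within 5 Mb. In IR libraries these had 3 and 10 sites and 0 on chromosome 7. The highest PB site of both was listed for En2, at 15.9% and 20.9% of PB counts. The third held 115 PB counts and 1 PB site, and its IR library, at 253248 counts, had 554 sites with 40 on chromosome 7 and 0 within 5 Mb of the window.

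Sites near the window of the other launch group were few but not all minor. Animals launched from chromosome 7 had 5 IR sites, in 2 of 29 animals, within 5 Mb of the chromosome 10 window, with a median of 0.381% and a highest value of 31.1% of IR counts. Animals launched from chromosome 10 had 6 IR sites, in 5 of 90 animals, within 5 Mb of the chromosome 7 window, with a median of 0.327% and a highest value of 35.9%. At 5 of 5 and 4 of 6 of these positions the launch group of that chromosome also had counts.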
